A study of Mus musculus with 6 samples.

Results

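The genes described here encode the selectins, the immunoglobulin-type adhesion receptors and the sialomucins through which endothelium catches and holds leukocytes. They are the 9 rows of the deposited table named Sele, Selp, Selplg, Icam1, Icam2, Vcam1, Madcam1, Cd34 and Glycam1, out of 23472 named genes, chosen by name for their place in leukocyte adhesion. RNA sequencing measured them in mouse liver sinusoidal endothelial cells, fenestrated cells that form the wall of the hepatic sinusoids. The RBPjcKO group held 3 libraries from C57BL/6 mice aged 7 to 8 weeks, with a conditional endothelial knockout of Rbpj induced by tamoxifen injected into the peritoneum. The wild-type group held 3 libraries from C57BL/6 mice of the same age that also received tamoxifen. The protein encoded by Rbpj binds DNA and carries Notch signals to target genes. The sources used here do not give the promoter that drives the recombinase or the way the cells were purified. Whether the 3 libraries of a group stand for 3 animals is not stated, and p-values therefore cover the spread among these libraries, which may be technical.

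Leukocytes leave the blood in steps. Selectins on endothelium bind sugars on leukocyte mucins and let the cells roll, and the receptors ICAM and VCAM then hold them through leukocyte integrins. P-selectin is stored in Weibel-Palade bodies, the secretory granules of endothelium, whereas E-selectin is made after transcription is switched on, classically by inflammatory cytokines acting through NF-kB. Liver sinusoids are known for slow flow and for leukocyte arrest that leans on integrin ligands more than on selectins.

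Named genes received 38740589 to 40459702 counts in the RBPjcKO libraries and 30958761 to 38203775 in the wild-type libraries. Rbpj, counted over the whole gene, averaged 18.1 ± 1.48 CPM in RBPjcKO and 44.7 ± 2.76 CPM in wild-type cells (SD, n = 3 each), where CPM are counts scaled to library sizes balanced by the TMM method. It was lower in RBPjcKO with an adjusted p of 0.000982 by edgeR's quasi-likelihood test. Defining markers of sinusoidal endothelium were abundant: 14 of them summed to 32076 to 37923 CPM in RBPjcKO and 38459 to 44118 CPM in wild-type libraries, and none was at 0, although 1 of them, Clec4f, is also a Kupffer cell gene. Pan-endothelial markers, 12 genes, summed to 17495 to 20426 CPM in RBPjcKO and 20549 to 24540 CPM in wild type. Among the sinusoidal markers 1 was called higher and 4 lower in RBPjcKO, and among the pan-endothelial markers 2 higher and 1 lower. Across all genes tested, 16.7% were called. Of 16 markers of continuous and large-vessel endothelium, 1 was called higher and 8 lower in RBPjcKO, with sums of 2238 to 2734 CPM against 3100 to 3720 CPM in wild type. RNA of other cells was present, and its range is given beside the results it touches. In such bulk libraries fewer cells of a type and less RNA per cell cannot be told apart.

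The start-site regions of Sele, Selp and Icam1 are shown first, because Rbpj binds DNA and E-selectin is a textbook NF-kB target. The sequences are those of RefSeq on GRCm38.p6, from 250 bases before to 50 bases after the annotated start, on the gene's strand. Entries were present for 6 of the 9 genes, and Selplg, Icam2 and Vcam1 had none. Capitals mark matches on either strand to TGGGAA, the core of the Rbpj motif, or to GGG and CC with any 5 bases between them, a loose spelling of the NF-kB motif.
Sele, chr1:164047984-164048283, plus strand: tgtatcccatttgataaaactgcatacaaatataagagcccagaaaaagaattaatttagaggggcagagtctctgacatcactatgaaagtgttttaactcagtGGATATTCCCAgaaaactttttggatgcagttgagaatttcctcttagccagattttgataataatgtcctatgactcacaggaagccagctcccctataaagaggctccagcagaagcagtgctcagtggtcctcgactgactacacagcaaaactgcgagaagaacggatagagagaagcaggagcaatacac
Selp, chr1:164115014-164115313, plus strand: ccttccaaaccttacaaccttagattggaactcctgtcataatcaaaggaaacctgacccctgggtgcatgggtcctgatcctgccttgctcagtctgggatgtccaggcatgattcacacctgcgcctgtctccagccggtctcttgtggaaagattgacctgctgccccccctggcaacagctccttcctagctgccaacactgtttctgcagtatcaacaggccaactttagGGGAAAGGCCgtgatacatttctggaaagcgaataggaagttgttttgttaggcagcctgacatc
Icam1, chr9:21015690-21015989, plus strand: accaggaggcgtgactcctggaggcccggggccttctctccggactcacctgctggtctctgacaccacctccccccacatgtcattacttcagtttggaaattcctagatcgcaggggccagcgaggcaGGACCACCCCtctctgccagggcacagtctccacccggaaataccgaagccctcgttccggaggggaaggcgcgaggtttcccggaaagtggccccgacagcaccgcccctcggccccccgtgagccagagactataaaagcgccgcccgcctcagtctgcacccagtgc

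In the Sele window the letters of both motifs fell together. The match to the Rbpj core, TGGGAA on the minus strand, lay at positions -140 to -135. Positions are counted from 0 at the RefSeq start, which for Icam1 and Madcam1 differs from the gene start in the deposited table. The match to the loose NF-kB spelling, GGGAATATCC on the minus strand, lay at -145 to -136 and overlapped it. The Selp window held 1 match, GGGAAAGGCC, and the Icam1 window held 1, GGGGTGGTCC on the minus strand, and neither held TGGGAA. The NF-kB spelling demands both GGG and CC, so similar stretches without GGG were not marked. Examples are TGGAAATTCC in the Icam1 window and GAGAATTTCC in the Sele window. Madcam1 and Glycam1, which were hardly detected or not detected, held 3 matches each to TGGGAA, and Cd34 held none. Madcam1 held 5 matches to the loose NF-kB spelling, which overlap one another on the 2 strands within -84 to -74 and within -71 to -61. Cd34 held 2 such matches and Glycam1 none. In the Madcam1 window the motifs overlapped too, with TGGGAA at -85 to -80 and at -72 to -67. The spellings can share the letters GGGAA, and the share of all windows with such an overlap was not counted. Among 32817 promoter windows of the same length, 25.6% held TGGGAA and 50.8% held the loose NF-kB spelling on either strand, so both are common strings. These matches describe the letters in a window and show no binding.

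After a filter on low counts 14869 genes were tested, and 7 of the 9 members passed it. Of these 7, 3 were called at an adjusted p under 0.05, all higher in RBPjcKO: Sele, Selplg and Icam2. Of all genes tested, 16.7% were called, 9.0% higher and 7.74% lower. Selp, Icam1, Vcam1 and Cd34 did not pass the test. The median log2 fold change of the 7 was 0.62, beside a median of -0.005 over all genes tested. For 4 of the 7 (Sele, Selp, Selplg and Icam2) every RBPjcKO library lay above every wild-type library, beside 20.7% of all genes tested, and for the other 3 the groups overlapped. In either direction the groups did not overlap for 40.3% of all genes tested, and in 19.6% the RBPjcKO libraries lay below. Without wild-type replicate 2 only 1 member, Sele, was called, among 796 genes in all.

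**Figure D1:**
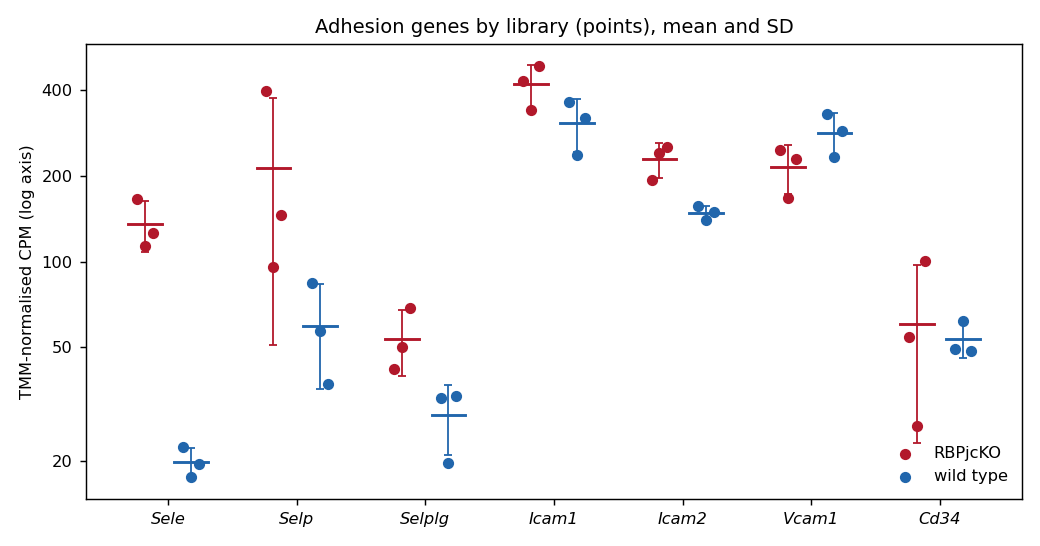
TMM-normalised CPM on a log axis for the 7 adhesion genes that passed the filter. Points are libraries (RBPjcKO left, wild type right for each gene), horizontal bars are means and vertical bars SD of 3 libraries. Sele stands at 114 to 166 CPM in RBPjcKO and 17.6 to 22.4 CPM in wild-type libraries, while the groups overlap for Icam1, Vcam1 and Cd34.

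The selectins of endothelium came first. Sele (chromosome 1, 164048234 to 164057677, plus strand, GRCm38), which encodes E-selectin, stood at 166, 114 and 126 CPM in RBPjcKO libraries, against 22.4, 17.6 and 19.4 CPM in wild-type libraries. The groups were far apart, with the lowest RBPjcKO library well above the highest wild-type one. The counts behind these levels were 4570 to 6418 in RBPjcKO and 614 to 820 in wild type. The mean was 6.85-fold higher in RBPjcKO (log2 fold change 2.78, SE 0.17, 95% interval 2.38 to 3.17), with an adjusted p of 0.000431 by edgeR's quasi-likelihood test. By p-value Sele ranked at place 13 of the 14869 genes, and by size of rise at place 69. With any 1 library left out it was still called, at log2 fold changes of 2.59 to 2.89 and an adjusted p of at most 0.00497.

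Selp (chromosome 1, 164115264 to 164150026, plus strand), which encodes P-selectin, stood at 398, 95.6 and 145 CPM in RBPjcKO libraries, against 84.4, 57.0 and 37.1 CPM in wild-type libraries. All 3 RBPjcKO libraries lay above all 3 wild-type ones, but replicate 1 stood apart from the other RBPjcKO libraries and replicate 2 lay close to the highest wild-type library. The mean was 3.58-fold higher in RBPjcKO, with a log2 fold change of 1.84 (SE 0.54, 95% interval 0.58 to 3.10). It missed the threshold at an adjusted p of 0.0558 (unadjusted p = 0.0102) by edgeR's quasi-likelihood test. Without RBPjcKO replicate 1 the log2 fold change was 1.00 (adjusted p = 0.0985 by edgeR), and without RBPjcKO replicate 2 it was 2.19 (adjusted p = 0.0382 by edgeR). DESeq2 called it at an adjusted p of 0.045, and edgeR with no filter on low counts at an adjusted p of 0.0458.

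Platelets also carry P-selectin. Markers of platelets and megakaryocytes, 11 genes, summed to 42.7 to 56.6 CPM in RBPjcKO and 27.7 to 31.4 CPM in wild-type libraries, without overlap. Of these genes 2 were called higher, 4 were not called and 5 were not tested. Most of that sum was Itga2b, at 31.2 to 45.6 CPM against 17.7 to 20.3 CPM. The next most abundant marker was Gp1ba, followed by Pf4. Pf4, which encodes platelet factor, stood at 2.91 to 4.52 CPM in RBPjcKO and 2.46 to 4.08 CPM in wild type. Ppbp reached at most 0.719 CPM, and Gata1 was at 0 in every library. The part of platelet RNA in the Selp values was not tested.

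The Selp row overlaps rows on the other strand. Gm16548, a predicted gene that overlaps the end of Selp on the minus strand, stood at 72.6, 20.0 and 28.2 CPM in RBPjcKO libraries, against 15.5, 10.5 and 7.62 CPM in wild-type libraries, and was called higher with a log2 fold change of 1.84 (adjusted p = 0.0433 by edgeR). Since the strand setting of the counting is not given, reads of Selp and of Gm16548 cannot be told apart. It followed the same order of RBPjcKO libraries as Selp.

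Sele and Selp lie in 1 cluster on chromosome 1, followed by F5, which encodes coagulation factor V. F5 stood at 9.41, 10.4 and 26.4 CPM in RBPjcKO libraries, against 8.13, 3.61 and 7.12 CPM in wild-type libraries, with an adjusted p of 0.0938 by edgeR (log2 fold change 1.29, SE 0.46). Hepatocytes make coagulation factor V, and their 19 markers summed to 1752, 2352 and 5089 CPM in RBPjcKO libraries, against 2295, 1191 and 1535 CPM in wild-type libraries, with 5 called higher. Within each group that sum put the libraries in the same order as F5, and the part of hepatocyte RNA was not tested. Of 11 other named genes compared within 250 kb of the Sele gene, Gm16548 alone was called. The genes on either side of the cluster had log2 fold changes between -0.60 (Mettl18) and 0.48 (BC055324), and none of them was called. These neighbours were looked at after the values of Sele and Selp were known.

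**Figure D2:**
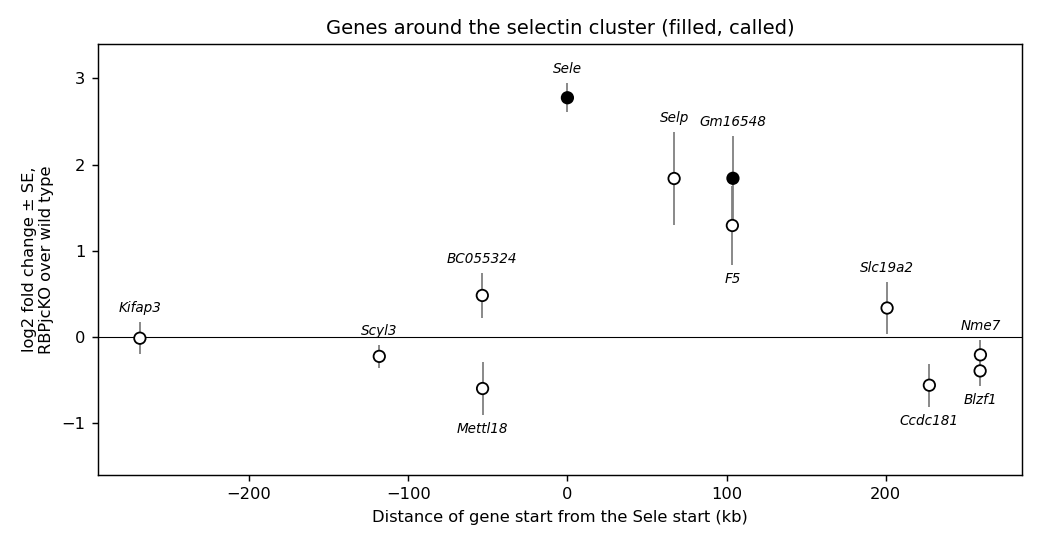
Log2 fold change (RBPjcKO over wild type) with SE for the named genes compared within 250 kb of the Sele gene, by distance of each gene's start from the Sele start in kb. Filled points are called at an adjusted p under 0.05. Sele, Selp, Gm16548 and F5 stand between 1.29 and 2.78, and the genes outside the cluster between -0.60 and 0.48.

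Selplg (chromosome 5, 113817798 to 113830501, minus strand) encodes PSGL-1, the mucin on leukocytes that P-selectin binds. It stood at 41.9, 50.1 and 68.9 CPM in RBPjcKO libraries, against 33.2, 19.7 and 33.8 CPM in wild-type libraries. The groups did not overlap, although the lowest RBPjcKO library lay close to the highest wild-type libraries. The mean was 1.86-fold higher in RBPjcKO (log2 fold change 0.90, SE 0.25, 95% interval 0.31 to 1.48), a call at the edge of the threshold with an adjusted p of 0.0493 by edgeR's quasi-likelihood test. It was kept in 1 of the 6 fits without a library, in which the log2 fold change ran from 0.67 to 1.03 and the adjusted p from 0.0496 to 0.113. With the mean log2 CPM of 19 hepatocyte markers as a covariate the log2 fold change was 0.30 (adjusted p = 0.456 by edgeR).

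Markers of leukocytes, which carry Selplg, were measured in the same libraries. The 12 granulocyte markers summed to 547, 800 and 1306 CPM in RBPjcKO libraries, against 643, 126 and 269 CPM in wild-type libraries. Of these markers 3 were called higher and none lower. Within the RBPjcKO group Selplg and the granulocyte sum put the libraries in the same order, and in wild type replicate 2 was lowest in both. The 15 markers of Kupffer cells and macrophages ran from 839 to 2369 CPM in RBPjcKO and from 1627 to 3393 CPM in wild type, and the 15 markers of T and NK lymphocytes from 39.1 to 167 CPM and from 137 to 158 CPM, with none called in either list. The 8 markers of B lymphocytes and plasma cells summed to 23.5 to 32.9 CPM in RBPjcKO and 31.4 to 35.9 CPM in wild type, with 2 called higher. The part of these cells in the Selplg values was not tested.

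Next came the integrin ligands. Icam2 (chromosome 11, 106377656 to 106382641, minus strand), a receptor that resting endothelium carries without stimulation, stood at 193, 239.9 and 253 CPM in RBPjcKO libraries, against 156, 140.1 and 149 CPM in wild-type libraries. The groups did not overlap and the wild-type libraries lay close together. Icam2 rose 1.54-fold (log2 fold change 0.62, SE 0.12, 95% interval 0.35 to 0.89), with an adjusted p of 0.0145 by edgeR's quasi-likelihood test. The call was lost without wild-type replicate 2 (log2 fold change 0.57, adjusted p = 0.0644 by edgeR) and with the hepatocyte covariate (0.41, adjusted p = 0.188 by edgeR), and held in the other 5 fits without a library.

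Icam1 (chromosome 9, 21015960 to 21028796, plus strand), the inducible ligand of leukocyte beta-2 integrins, stood at 430, 342 and 486 CPM in RBPjcKO libraries, against 364, 238 and 321 CPM in wild-type libraries. The groups overlapped, with RBPjcKO replicate 2 below wild-type replicate 1. The log2 fold change was 0.45 (SE 0.19, 95% interval 0.02 to 0.88) with an adjusted p of 0.134 by edgeR's quasi-likelihood test, and no alternative called it. A cDNA clone on the other strand overlaps the end of Icam1, and its reads cannot be told apart from those of Icam1. Icam1 and Sele are both NF-kB targets in other endothelia. The interval of Icam1 lay wholly below that of Sele, but the fold changes were not tested against each other. A part of NF-kB in either was not tested.

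Vcam1 (chromosome 3, 116110020 to 116129688, minus strand), the ligand of very late antigen integrins, stood at 247, 168 and 229.7 CPM in RBPjcKO libraries, against 331, 233 and 288 CPM in wild-type libraries. The groups overlapped, and it was the one tested member with a mean below wild type in RBPjcKO. Its log2 fold change was -0.40 (SE 0.18, 95% interval -0.82 to 0.01), with an adjusted p of 0.155 by edgeR's quasi-likelihood test. It was not called in any alternative, with log2 fold changes of -0.58 to -0.25. Stellate cells and macrophages express Vcam1 too. The Kupffer cell and macrophage markers summed to 2369, 839 and 1682 CPM in RBPjcKO libraries, against 3103, 1627 and 3393 CPM in wild-type libraries. That sum ordered the RBPjcKO libraries as Vcam1 did, and wild-type replicate 2 was lowest in both. The 16 stellate cell and fibroblast markers summed to 2264 to 3674 CPM in RBPjcKO and 3454 to 3836 CPM in wild type, with 3 called lower and none higher. Their part in the Vcam1 values was not tested.

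**Figure D3:**
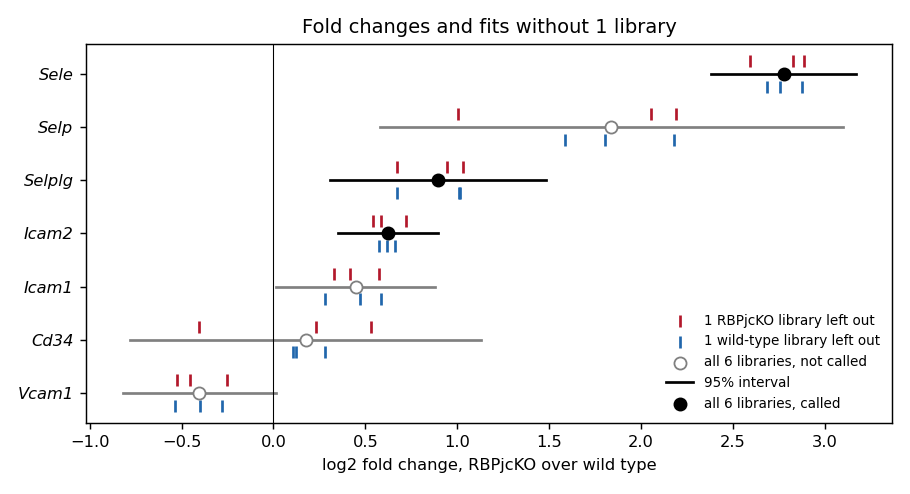
Log2 fold changes (RBPjcKO over wild type) of the 7 adhesion genes with 95% intervals. Filled points are called at an adjusted p under 0.05, and ticks give the fold change when 1 library is left out. Sele runs from 2.59 to 2.89 over these fits, Selp from 1.00 to 2.19, and Cd34 from -0.40 to 0.53, on both sides of 0.

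The sialomucins were the last group. Cd34 (chromosome 1, 194938821 to 194961292, plus strand), a surface mucin of capillary endothelium and blood stem cells that can carry selectin ligands, stood at 54.2, 26.4 and 100.2 CPM in RBPjcKO libraries, against 49.5, 61.9 and 48.7 CPM in wild-type libraries. The RBPjcKO libraries enclosed the whole wild-type range, and the log2 fold change of 0.17 (SE 0.41, 95% interval -0.78 to 1.13) was not called, with an adjusted p of 0.794 by edgeR's quasi-likelihood test. Its sign turned to -0.40 without RBPjcKO replicate 3. That library also held the highest RBPjcKO sums of the hepatocyte markers (5089 CPM, against 1752 and 2352 CPM in the other RBPjcKO libraries), the stellate cell and fibroblast markers (3674 CPM, against 2384 and 2264 CPM) and the mesothelial markers (114 CPM, against 29.3 and 63.2 CPM), and their part in the Cd34 values was not tested. In wild type these sums were 1191 to 2295 CPM, 3454 to 3836 CPM and 74.2 to 262 CPM in that order. Markers of blood stem and progenitor cells, 9 genes, summed to 680.1 to 882 CPM in RBPjcKO and 821 to 884 CPM in wild type, with 2 called lower. Cd34 overlaps Gm16897 on the other strand, which had 170, 88 and 270 counts in RBPjcKO libraries, against 178, 136 and 117 counts in wild-type libraries, and their reads cannot be told apart.

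Glycam1 (chromosome 15, 103562762 to 103565078, minus strand), a mucin of high endothelial venules and mammary epithelium, had 0 counts in all 6 libraries. A count of 0 allows up to 3 counts, which is 0.0747 to 0.0949 CPM in these libraries, an allowance for counting error only. Madcam1 (chromosome 10, 79664574 to 79668536, plus strand), the gut-homing ligand of venules in intestinal tissue, had 2, 2 and 4 counts in RBPjcKO libraries, against 1, 2 and 0 counts in wild-type libraries. Both were below the filter and no difference was detectable at this depth.

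Levels of different genes are compared here in RPKM, reads scaled to gene length and library size, as the authors computed them. In RBPjcKO cells the order was Icam2 (166 ± 25.1 RPKM), Icam1 (137 ± 24.3), Vcam1 (52.3 ± 9.91), Selp (51.0 ± 38.1), Sele (38.5 ± 7.27), Cd34 (19.1 ± 12.0) and Selplg (17.1 ± 4.65), as mean RPKM ± SD of 3 libraries. In wild-type cells it was Icam2 (109 ± 2.97 RPKM), Icam1 (101 ± 18.3), Vcam1 (69.8 ± 9.99), Cd34 (17.1 ± 2.78), Selp (14.4 ± 5.33), Selplg (9.25 ± 2.42) and Sele (5.68 ± 0.509). In both groups Icam2 and Icam1 lay within their spread of each other. In RBPjcKO the same held for Selp with each of Vcam1, Sele, Cd34 and Selplg, for Vcam1 with Sele, and for Cd34 with Selplg. In wild type it held for Cd34 with Selp and Selp with Selplg. Sele held the fifth place in RBPjcKO and the last of the 7 in wild type. Among the 14869 genes tested its RPKM rank was 1597 in RBPjcKO and 7310 in wild type.

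**Figure D4:**
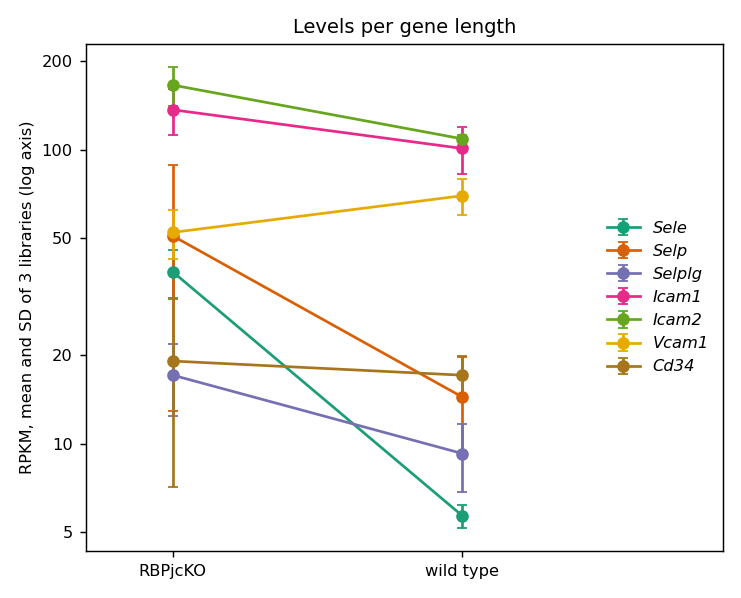
Mean RPKM with SD of 3 libraries, on a log axis, for the 7 adhesion genes in RBPjcKO (left) and wild type (right), joined by lines per gene. Sele is at 38.5 RPKM in RBPjcKO and 5.68 RPKM in wild type, and Icam2 and Icam1 lead the order in both groups.

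Shares within the 9 genes also stood apart between the groups. Sele and Selp made up 27.8%, 13.6% and 13.6% of the summed RPKM of the 9 genes in RBPjcKO libraries, against 7.30%, 6.67% and 4.47% in wild-type libraries. Vcam1 made up 11.7%, 10.1% and 10.7% in RBPjcKO libraries, against 22.1%, 20.2% and 21.7% in wild-type libraries. The summed RPKM itself was 506, 407 and 529 in RBPjcKO libraries, against 356, 291 and 331 in wild-type libraries. A lower share therefore does not by itself mean a lower level of the gene. Icam1 and Icam2 together made up 54.5% to 70.3% in RBPjcKO and 63.5% to 65.8% in wild type, ranges that overlap. The ratio of Vcam1 to Icam1 RPKM was 0.429, 0.366 and 0.354 in RBPjcKO libraries, against 0.680, 0.733 and 0.671 in wild-type libraries, without overlap, although neither gene was called by itself. These shares and this ratio were chosen after the values were seen and carry no test.

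The members also differed in how much the libraries of a group varied. In RBPjcKO the coefficient of variation of CPM was 76.1% for Selp and 61.8% for Cd34, and 13.8% to 25.8% for the other 5 tested members, beside a median of 10.8% over 13548 genes at 1 CPM or more in either group. In wild type it was 39.9% for Selp, 27.6% for Selplg and 5.44% to 20.9% for the other 5, beside a median of 11.7%. Selp was the most variable tested member in both groups.

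The genes whose log2 CPM followed Sele most closely over the 6 libraries were Bmp2k (Pearson's r = 0.9996), Cxcr7 (0.9988) and Rhno1 (0.9985), out of 13547 candidates at 1 CPM or more in either group. Bmp2k encodes a kinase and Rhno1 a protein of DNA damage signalling. Pearson's r takes no account of the size of a change, and their log2 fold changes were 0.78 and 0.53, against 2.78 for Sele. Rhno1 kept its call in 3 of the 6 fits without a library, and not with the hepatocyte covariate (0.53, adjusted p = 0.149 by edgeR). The r values describe 6 libraries in 2 groups, share the group difference and carry no test. Cxcr7 (now Ackr3), which encodes a scavenging receptor for Cxcl12, averaged 206 ± 38.4 CPM in RBPjcKO and 17.9 ± 1.38 CPM in wild-type cells. Its log2 fold change was 3.52 (adjusted p = 0.000103 by edgeR), and it was called in all 6 fits without a library. The order of libraries within each group was the same for Cxcr7 as for Sele.

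Other genes of leukocyte adhesion were compared by list. Of 30 tested genes of selectin ligands and the enzymes that decorate them, 4 were higher and 4 lower in RBPjcKO, 26.7% of the list beside 16.7% of all genes, and 22 did not pass the test. The median log2 fold change was -0.09. The 4 that rose were Ndst1 and Tpst2, which encode sulfotransferases, and B3gnt3 and Galnt1, which encode glycosyltransferases, with log2 fold changes of 0.39 to 0.51. No gene of the list was called higher without RBPjcKO replicate 1 or 2, without wild-type replicate 2 or with the hepatocyte covariate. The 4 that fell were Podxl, Chst2, Chst4 and Gcnt1. Podxl, a podocalyxin mucin related to Cd34, averaged 369 ± 12.3 CPM in RBPjcKO and 811 ± 139 CPM in wild type (log2 fold change -1.13, adjusted p = 0.00325 by edgeR). Chst2, a sulfotransferase of selectin ligands, averaged 105 ± 30.2 CPM in RBPjcKO and 205 ± 26.0 CPM in wild type (-0.97, adjusted p = 0.0258 by edgeR). Chst4, the sulfotransferase of high endothelial venules, averaged 0.607 ± 0.314 CPM in RBPjcKO and 2.89 ± 0.186 CPM in wild type (-2.25, adjusted p = 0.0135 by edgeR). Gcnt1, the core-branching enzyme of mucin sugars, fell to 2.65 ± 0.251 CPM in RBPjcKO, against 4.53 ± 0.445 CPM in wild type (-0.77, adjusted p = 0.0377 by edgeR), and lost its call in each fit without a library. Chst2 kept its call in 3 of those 6 fits. With the hepatocyte covariate Chst2 (-0.61), Chst4 (-2.73) and Gcnt1 (-0.90) lost their calls (adjusted p = 0.239, 0.0733 and 0.184 by edgeR). The fold change was smaller in size than without the covariate for Chst2, and larger for Chst4 and Gcnt1. Of the list, 2 to 6 were called when 1 library was left out. The 2 came without wild-type replicate 2, 3 without wild-type replicate 3, 4 without RBPjcKO replicate 1 or 2, and 5 without wild-type replicate 1.

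Of 12 leukocyte integrin genes and partners, 2 fell, none rose and 10 did not pass the test, a share of 16.7% that equals that of all genes, with a median log2 fold change of -0.31. Itga9, an integrin subunit that sinusoidal endothelium itself can express, averaged 575 ± 27.2 CPM in RBPjcKO and 936 ± 92.2 CPM in wild type (-0.70, adjusted p = 0.00692 by edgeR). Itgal, the alpha chain of LFA-1 that binds both ICAM proteins, averaged 49.4 ± 6.30 CPM in RBPjcKO and 79.5 ± 19.6 CPM in wild type (-0.69, adjusted p = 0.0486 by edgeR). Its call was kept in 1 of the 6 fits without a library and not with the hepatocyte covariate (-0.81, adjusted p = 0.172 by edgeR). Itgal is a leukocyte gene. The Kupffer cell and macrophage sum (839 to 2369 CPM in RBPjcKO and 1627 to 3393 CPM in wild type) ordered the RBPjcKO libraries as Itgal did and was lowest in wild type in replicate 2, as Itgal was. The T and NK lymphocyte sum was 47.0, 167 and 39.1 CPM in RBPjcKO libraries, against 137, 158 and 150 CPM in wild-type libraries. It was highest in both groups in replicate 2, where Itgal was lowest. The part of any of these cells was not tested. The list held 1 call without RBPjcKO replicate 1 or 3 or without wild-type replicate 1 or 3.

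Of 32 genes of endothelial junctions and transmigration, 5 rose, 3 fell and 24 did not pass the test (25.0% called, beside 16.7% of all genes, with a median log2 fold change of 0.11). Mcam, an adhesion receptor at endothelial junctions, averaged 514 ± 65.0 CPM in RBPjcKO and 244 ± 39.0 CPM in wild type (1.07, adjusted p = 0.00552 by edgeR). Pvrl2, which encodes nectin-2, averaged 222 ± 12.2 CPM in RBPjcKO and 125 ± 9.77 CPM in wild type (0.84, adjusted p = 0.00272 by edgeR). Alcam, which binds the lymphocyte receptor Cd6, averaged 8.29 ± 3.07 CPM in RBPjcKO and 24.1 ± 6.94 CPM in wild type (-1.54, adjusted p = 0.0177 by edgeR). Cholangiocytes also express Alcam, and 5 of their 10 markers fell, with sums of 93.4 to 137 CPM in RBPjcKO and 214 to 429 CPM in wild type, and their part was not tested. Jam2, a junctional adhesion molecule, averaged 349 ± 121 CPM in RBPjcKO and 705 ± 118 CPM in wild type (-1.01, adjusted p = 0.0352 by edgeR), and was called in 2 of the 6 fits without a library, while Alcam was called in 4. With the hepatocyte covariate Mcam (0.89), Alcam (-1.88) and Jam2 (-0.44) lost their calls (adjusted p = 0.0764, 0.104 and 0.25 by edgeR). The list held 3 calls without RBPjcKO replicate 2 or wild-type replicate 2, and 5 without wild-type replicate 3.

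**Figure D5:**
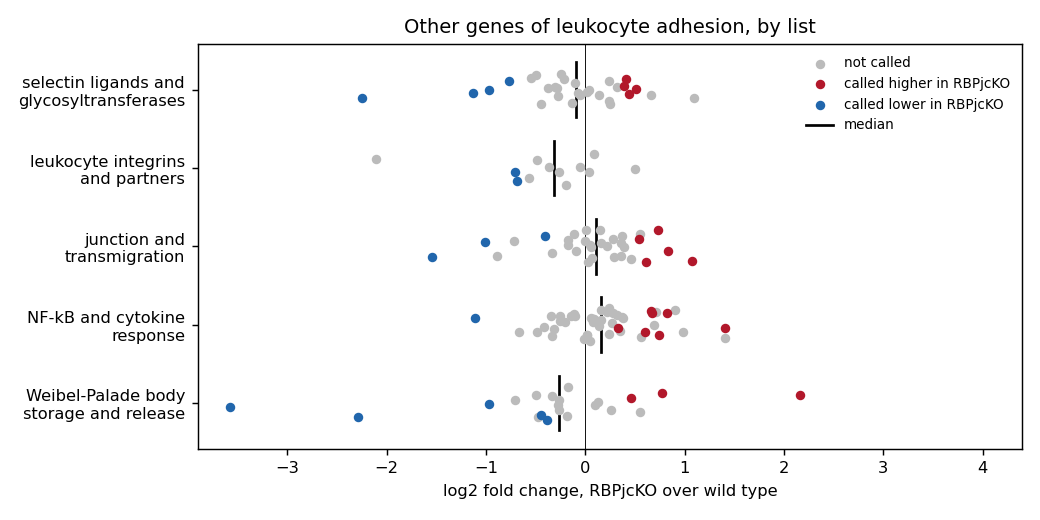
Log2 fold changes (RBPjcKO over wild type) of the other leukocyte adhesion genes, 1 point per tested gene, in 5 lists. Red points were called higher and blue points lower in RBPjcKO, and black bars are list medians, which lie between -0.31 and 0.16.

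Of 46 genes of NF-kB signalling and the cytokine response of endothelium, 7 rose, 1 fell and 38 did not pass the test, a share of 17.4% beside 16.7% of all genes, with a median log2 fold change of 0.16. Cxcl2, a neutrophil chemokine, averaged 64.2 ± 20.1 CPM in RBPjcKO and 24.3 ± 6.18 CPM in wild type (1.40, adjusted p = 0.0169 by edgeR), a call lost without wild-type replicate 2 (adjusted p = 0.056 by edgeR). Cxcl1, another neutrophil chemokine, averaged 91.1 ± 27.8 CPM in RBPjcKO and 51.5 ± 9.05 CPM in wild type (0.82, adjusted p = 0.0447 by edgeR), and was not called in any fit without a library. Tnip1, a brake on NF-kB, averaged 173 ± 9.25 CPM in RBPjcKO and 103 ± 11.8 CPM in wild type (0.74, adjusted p = 0.00568 by edgeR). Csf1, the macrophage growth factor, fell to 139 ± 20.5 CPM in RBPjcKO, against 300 ± 48.3 CPM in wild type (-1.11, adjusted p = 0.00569 by edgeR). With the hepatocyte covariate Cxcl2 (0.96), Cxcl1 (0.25) and Tnip1 (0.60) lost their calls (adjusted p = 0.167, 0.426 and 0.0857 by edgeR). Granulocyte markers, of which 3 were called higher, summed to 547 to 1306 CPM in RBPjcKO and 126 to 643 CPM in wild type, and their part in the chemokine values was not tested. The 4 named genes had smaller log2 fold changes than Sele in size, and a part of NF-kB in these values or in those of Sele was not tested. The list held 4 calls without any 1 of the RBPjcKO replicates and 3 without wild-type replicate 2.

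Of 21 genes of Weibel-Palade body storage and release, the granules that hold P-selectin, 3 rose, 5 fell and 13 did not pass the test (38.1% called, beside 16.7% of all genes, with a median log2 fold change of -0.27). Vwf, the main cargo, stood at 127, 86.4 and 145 CPM in RBPjcKO libraries, against 714, 671 and 367 CPM in wild-type libraries, without overlap (-2.29, SE 0.29, adjusted p = 0.00428 by edgeR). Selp, cargo of the same granules, had a log2 fold change of 1.84 that was not called. Vwf is also a gene of large vessels, whose 16 markers, Vwf among them, held 8 called lower and summed to 2238 to 2734 CPM in RBPjcKO and 3100 to 3720 CPM in wild type, and their part in the Vwf values was not tested. Myrip, a granule adaptor, averaged 0.758 ± 0.611 CPM in RBPjcKO and 9.04 ± 4.64 CPM in wild type (-3.57, adjusted p = 0.0129 by edgeR). Its log2 fold change was -4.47 without RBPjcKO replicate 3, and -1.14 by limma on log2(RPKM + 1), a scale that understates changes of low genes. Rab27a, the GTPase that recruits it, averaged 89.9 ± 18.1 CPM in RBPjcKO and 177 ± 36.0 CPM in wild type (-0.97, adjusted p = 0.0172 by edgeR), called in 5 of the 6 fits without a library. With the hepatocyte covariate Rab27a (-0.58) and Myrip (-4.49) lost their calls (adjusted p = 0.17 and 0.0675 by edgeR). Rab3b, a GTPase of secretory granules, rose to 189 ± 38.6 CPM in RBPjcKO, against 42.3 ± 7.09 CPM in wild type (2.16, adjusted p = 0.00117 by edgeR). Without wild-type replicate 2 the list held 5 calls.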

How the data were processed

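Per the submitters' processing notes, bcl2fastq and TopHat2 2.0.13 were used with the build mm10 (GRCm38). The sources used here do not give the counting tool, the annotation or the strand setting. The deposited table holds raw read counts per gene and library, and RPKM values that the authors computed, per the file headers. Its 56826 rows held 33353 cDNA clones, which were left out of the tests and kept as an alternative, 1 emptied row and 23472 named genes, of which 27 carried spreadsheet dates and were named by Entrez identifier.

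Low counts were removed by filterByExpr (minimum count 10 and minimum total 15), which left 14869 genes. Library sizes were scaled by TMM. The groups were compared in edgeR 4.0.16 (R 4.3.3) by its quasi-likelihood test, and p-values were adjusted by Benjamini-Hochberg over all genes tested, with a threshold of 0.05. SE is the size of the log2 fold change over the square root of F, and 95% intervals use the test's degrees of freedom. The procedure was tested on simulated counts. Libraries were grouped by the genotype label.

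Members and gene lists were chosen with earlier results of these data known. Named are all members, Rbpj, up to 4 called genes of each list with at least 1 CPM in a group by size of change, and the 3 genes closest to the called member with the largest change. Genes near the selectin cluster and marker genes were named after their values were seen. Alternatives were DESeq2 1.42.0, limma 3.58.1 on log2(RPKM + 1), other filters and scalings, clones included, a robust fit, a hepatocyte covariate, a threshold of 0.01 and leaving out each library. Marker sums leave out the members. A gene of the compared lists is not reported here. Figures were drawn with Python 3.11.15.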

Additional observations from a re-analysis of the deposited data

How the results depend on the processing

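No paired analysis was possible because the labels number the libraries from 1 to 6 and pair none across the groups. Sele was called under every alternative run. Members called numbered 3, and 1 with the hepatocyte covariate or at an adjusted p under 0.01, with 1 to 3 when a library was left out (1 without wild-type replicate 2). All genes called numbered 2489, 296 with the covariate, 605 at an adjusted p under 0.01 and 796 to 1836 when a library was left out (796 without wild-type replicate 2, 1433 without RBPjcKO replicate 2). With the covariate, calls were 1 for selectin ligands, 1 for integrins, 1 for junction genes, 1 for NF-kB genes and 2 for Weibel-Palade genes, and at an adjusted p under 0.01 they were 1, 1, 2, 3 and 3 in that order. DESeq2 called 14 junction and 13 NF-kB genes, among 3632 genes in all, against 2489 in the main fit. Integrin calls were 1 with the filter set to 5 counts in 3 libraries, clones included, the robust fit or limma on log2(RPKM + 1). Leaving out a library gave 2 to 6, 1 to 3, 3 to 9, 3 to 9 and 5 to 8 calls in the 5 lists. The log2 fold change of Cd34 turned negative with the covariate (-0.528), with limma (-0.022) and without RBPjcKO replicate 3 (-0.403), and ran to 0.532 over the fits without a library. Selp was called with no filter on low counts and by DESeq2. Selplg was not called with clones included, the robust fit, limma or the covariate. The cause was not tested. The covariate and the groups cannot be told apart in full, since its value was higher in every RBPjcKO library than in any wild-type library.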
